A study of Mus musculus with 13 samples.

Results

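The miR-29 family of the mouse was measured in thymic iNKT cells of WT and Tet2/3 DKO mice. Its members were every precursor (hairpin) named mmu-mir-29a, mmu-mir-29b-1, mmu-mir-29b-2 or mmu-mir-29c (the prefix, for the mouse, is left out from here on), 4 of the 1127 hairpins counted, and every mature sequence whose name begins with miR-29a, miR-29b or miR-29c, 7 of the 1297 mature sequences counted. Members were taken by name, but the choice was made with earlier results of these data known. Reads were 50 bases long and the mir-29b-1 and mir-29b-2 hairpins 71 and 81, so a hairpin count is of reads that match part of it. It is not a measure of intact precursors. Whether a read was counted both for a hairpin and for a mature sequence is not given in the sources used here. Hairpin and mature values are therefore not separate evidence.

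Small RNA-seq was performed on iNKT cells sorted from the thymus of 6 WT mice of the C57BL/6 strain and of 7 mice of the genotype Tet2-/-Tet3flx/flxcd4cre, at 21 to 25 days of age. In the latter mice Tet2 was deleted in every cell, and floxed Tet3 was deleted by a cre driven from CD4, thus in T cells after they reach the CD4-expressing stage. The controls, a separate C57BL/6 stock, carried neither the deletions nor the cre, so their effects cannot be told apart. iNKT cells are innate-like T lymphocytes whose semi-invariant receptor sees lipids on CD1d, and they were sorted as live TCRβ+ cells that bind a lipid-loaded tetramer. Each mouse gave 1 library, mice of both sexes were used for each genotype, and sex was not assigned to single mice here. The WT libraries held between 469117 and 1110226 hairpin counts and the Tet2/3 DKO libraries between 728653 and 1910526, and in the mature table the ranges were 1110852 to 2582057 and 1837631 to 4361963. Messenger RNA was not measured in these files, so the deletions could not be checked here. The 4 listed mature miRNAs of haematopoietic and T lineage cells that were in the table, of miR-142a, miR-150 and miR-181a, summed to between 172331 and 229702 CPM, which are counts scaled to a library of fixed size, in the WT mice, and to between 148682 and 207138 in the Tet2/3 DKO mice. These miRNAs mark the lineage and not iNKT cells in particular.

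A miRNA hairpin is cut from its primary transcript in the nucleus by DROSHA and then in the cytoplasm by DICER, which leaves a duplex of a 5p and a 3p arm, and the arm that is kept guides Argonaute proteins to messenger RNAs that pair with its seed near the 5′ end. The miR-29 family is known for its 3p arms, which target messenger RNAs of DNA methyltransferases, TET enzymes and collagens. In T cells it is known to restrain interferon gamma production by targeting the messenger RNAs of T-bet, Eomes and interferon gamma.

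The mature sequences are shown because the reads are assigned by them and because the 3p arms differ by few bases. In the RefSeq annotation of GRCm38.p6 all 4 hairpins and all 7 mature members were found. The 3p arms are given 5′ to 3′ with the seed, bases 2 to 8, in capitals.
miR-29a-3p: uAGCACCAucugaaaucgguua
miR-29b-3p: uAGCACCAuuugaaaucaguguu
miR-29c-3p: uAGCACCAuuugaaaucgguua
The seed was the same in all 3, and no other sequence among the 1679 mature sequences of the table had it. Counted from the 5′ end, miR-29c-3p differed from miR-29a-3p by C10U alone, and miR-29b-3p differed from miR-29a-3p by C10U, G18A, U21G and A22U, ending 1 base later. The bases AGUGUU at the end of miR-29b-3p were shared with 1 other mature sequence of the table, miR-92b-5p. A read of miR-29a-3p and a read of miR-29c-3p therefore differ at a single position.

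The 5p arms, the strands that are mostly discarded, carry other seeds and are shown with bases 2 to 8 in capitals.
miR-29a-5p: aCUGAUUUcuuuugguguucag
miR-29b-1-5p: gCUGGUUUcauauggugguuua
miR-29b-2-5p: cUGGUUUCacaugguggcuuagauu
miR-29c-5p: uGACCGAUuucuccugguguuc
The 5p arms are distinct enough to tell the 4 genes apart, which the 3p arm of miR-29b does not allow, since mir-29b-1 and mir-29b-2 release the same sequence.

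The hairpins lie in pairs in the genome. Mir29a (chr6:31062660-31062747, minus strand) and Mir29b-1 (chr6:31063023-31063093, minus strand) are 275 bases apart. Mir29a overlaps no other annotated gene, and the edge of Mir29b-1 overlaps an exon of the lincRNA Gm27019. Mir29b-2 (chr1:195037040-195037120, plus strand) and Mir29c (chr1:195037547-195037634, plus strand) are 426 bases apart, in an exon of the non-coding transcript A330023F24Rik and opposite an annotated UTR exon of Cd46, which lies on the minus strand. The hairpins of mir-29b-1 and mir-29b-2 share a stretch of 25 bases that holds miR-29b-3p in full, shown with the mature sequence in capitals.
shared stretch: ucUAGCACCAUUUGAAAUCAGUGUU
A read of the 3p arm that ends within this stretch matches both hairpins, and such reads cannot be assigned to 1 of them. The count of mir-29b-2 was between 76.8% and 93.2% of that of mir-29b-1 over the 13 libraries, with a median of 88.9%.

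All 4 hairpins were lower in Tet2/3 DKO iNKT cells at an adjusted p under 0.05 (edgeR's quasi-likelihood test, Benjamini-Hochberg adjustment over the 350 hairpins tested), mir-29a, mir-29b-1 and mir-29b-2 to a fitted 51.6%, 48.7% and 48.5% of the WT level and mir-29c to 69.7%. Of all tested hairpins, 59.7% were called in either direction, 27.1% lower and 32.6% higher. No member passed the threshold of an absolute log2 fold change above 2 as well, which 8.29% of the hairpins did. A fold change here is relative to the rest of a library's miRNAs, and in a bulk sample fewer cells that hold a miRNA and less of it per cell cannot be told apart.

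The levels below are CPM of the TMM-scaled library, where TMM is a factor that sets most miRNAs of a library equal to those of the others. The hairpin mir-29a, the most abundant of the 4, was at 1530 CPM in the lowest WT mouse, 1605 in the median and 2116 in the highest. In Tet2/3 DKO mice it was at 675, 824 and 1212 CPM. The groups did not overlap, since the highest Tet2/3 DKO mouse, DKO 5, was still below the lowest WT mouse. The means were 1713 ± 238 (SD, n = 6) and 885 ± 172 (SD, n = 7), and the fitted change was -0.95 on the log2 scale with an SE of 0.128 (edgeR adjusted p = 5.52e-06).

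Its neighbour on chromosome 6, mir-29b-1, was at 473, 606 and 704 CPM in the lowest, median and highest WT mouse. In Tet2/3 DKO it was at 116, 294 and 396 CPM. The groups again did not overlap, and DKO 3 was far below the other Tet2/3 DKO mice, which began at 262 CPM. On the log2 scale the change was -1.04 with an SE of 0.199 (edgeR adjusted p = 0.000216), and -0.91 without DKO 3.

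The hairpin mir-29b-2 of chromosome 1, whose 3p reads cannot be told from those of mir-29b-1, was at 422, 540 and 620 CPM in the lowest, median and highest WT mouse. In Tet2/3 DKO it was at 106, 244 and 368 CPM, without overlap with WT, and DKO 3 was again the lowest mouse. On the log2 scale the change was -1.05 with an SE of 0.204 (edgeR adjusted p = 0.00025), and -0.92 without DKO 3. This value is not independent of that of mir-29b-1.

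The hairpin mir-29c, the least abundant, was at 101, 117 and 151 CPM in the lowest, median and highest WT mouse and at 56.6, 87.6 and 119 CPM in Tet2/3 DKO. The groups overlapped, because DKO 1, DKO 5 and DKO 7 were above the lowest WT mouse. On the log2 scale the change was -0.52 with an SE of 0.181 (edgeR adjusted p = 0.0192). The call did not hold without WT 5 (log2 fold change -0.46, adjusted p = 0.0536 from edgeR) or without WT 6 (-0.42, adjusted p = 0.0798), nor with libraries scaled by their total alone (-0.18, adjusted p = 0.402).

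**Figure D1:**
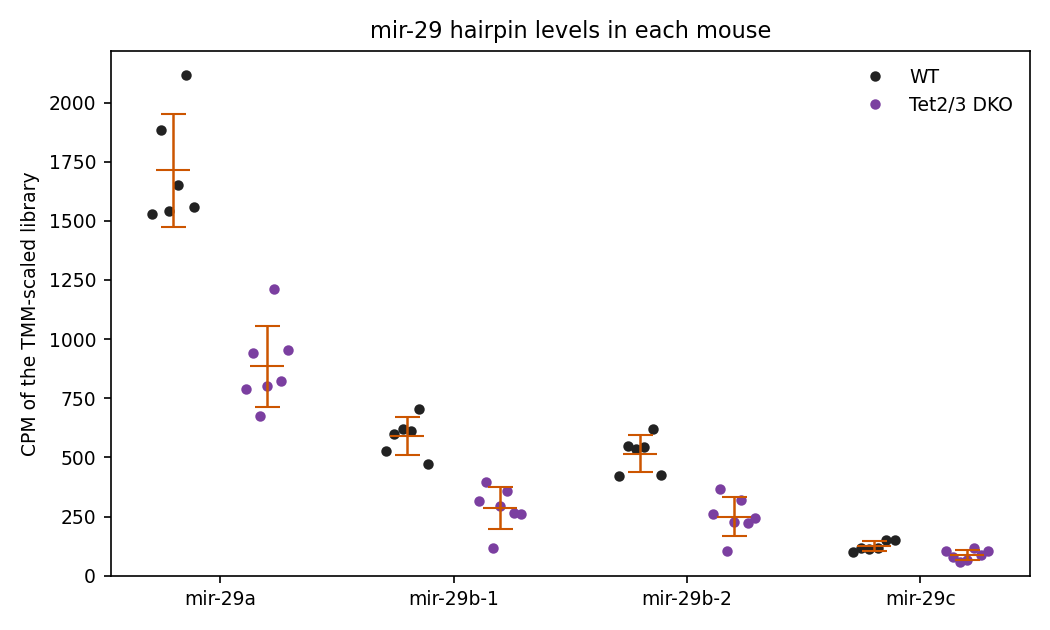
CPM of the TMM-scaled library (vertical axis) of the 4 mir-29 hairpins in each of 6 WT mice (black) and 7 Tet2/3 DKO mice (purple), with orange bars at the mean ± SD. For mir-29a, mir-29b-1 and mir-29b-2 each purple point is below each black point, while the points of mir-29c overlap, and the lowest purple point of mir-29b-1, at 116 CPM, is DKO 3.

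Each Tet2/3 DKO mouse was below each WT mouse for 3 of the 4 hairpins, against 14% of all tested hairpins. Summed over the 4 hairpins, the level was 2943 ± 380 CPM in WT (SD, n = 6), against 1509 ± 333 CPM in Tet2/3 DKO (SD, n = 7), 51.3% of the WT mean. The rows mir-466c-1, mir-466c-2 and mir-466c-3 held the same values (log2 mean CPM 8.23, log2 fold change 0.714). Reads that match several hairpins thus appear to be counted in each row. The sum and the 3 hairpins without overlap then hold mir-29b reads in 2 rows, and the shares over all hairpins include repeated rows. In the order of levels, mir-29a was above mir-29b-1 in all 13 libraries with ranges that did not overlap in either genotype. The ranges of mir-29b-1 and mir-29b-2 overlapped in both genotypes, and those of mir-29b-2 and mir-29c were apart in WT and overlapped in Tet2/3 DKO.

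Of the 7 mature members, 5 had enough counts to be tested, and 4 of these were lower in Tet2/3 DKO: the 3p arms of miR-29a, miR-29b and miR-29c and the 5p arm of miR-29a. The fall was from 2401 ± 434 CPM (SD, n = 6) to 1014 ± 261 (SD, n = 7) for miR-29b-3p, from 2955 ± 480 to 1731 ± 293 for miR-29a-3p and from 126.2 ± 29.8 to 86.6 ± 16 for miR-29c-3p. Of the 401 mature sequences tested, 55.6% were called in either direction, 27.4% lower and 28.2% higher. Each Tet2/3 DKO mouse was below each WT mouse for 3 of the 5 tested arms, against 14.5% of all tested mature sequences. No member passed the absolute log2 fold change of 2 as well, which 11.2% of the mature sequences did.

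In the mature table miR-29a-3p, the most abundant member and the one made by mir-29a alone, was at 2456, 2850 and 3696 CPM in the lowest, median and highest WT mouse. In Tet2/3 DKO it was at 1397, 1602 and 2174 CPM. All 7 Tet2/3 DKO mice were below the lowest WT mouse. The fitted level in Tet2/3 DKO was 58.6% of that in WT, with a 95% interval of 48.8% to 70.3%, and the fitted change was -0.77 on the log2 scale with an SE of 0.127 (edgeR adjusted p = 2.73e-05). Among the tested mature sequences ordered by mean CPM, it stood at place 40 in WT and at place 54 in Tet2/3 DKO.

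The arm shared by mir-29b-1 and mir-29b-2, miR-29b-3p, was at 1895, 2422 and 3126 CPM in the lowest, median and highest WT mouse. In Tet2/3 DKO it was at 667, 987 and 1396 CPM, and DKO 3 was again the lowest mouse. The groups did not overlap, and the fitted level in Tet2/3 DKO was 42.2% of that in WT, with a 95% interval of 33.6% to 53.0%. On the log2 scale the change was -1.24 with an SE of 0.158 (edgeR adjusted p = 1.41e-06), and the place by mean CPM went from 44 to 70.

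The third member that shares the seed, miR-29c-3p, was at 78.2, 135 and 157 CPM in the lowest, median and highest WT mouse and at 70.1, 77.8 and 107 CPM in Tet2/3 DKO. The lowest WT mouse was WT 6, and 3 of the 7 Tet2/3 DKO mice, DKO 2, DKO 5 and DKO 7, stood above it. The fitted level in Tet2/3 DKO was 68.5% of that in WT, with a 95% interval of 52.9% to 88.8%, and the fitted change was -0.55 on the log2 scale with an SE of 0.180 (edgeR adjusted p = 0.0137). The call did not hold with libraries scaled by their total alone (log2 fold change -0.28, adjusted p = 0.232).

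Among the 5p arms, miR-29a-5p was at 79.2, 92.0 and 108 CPM in the lowest, median and highest WT mouse and at 31.9, 44.8 and 57.4 CPM in Tet2/3 DKO, with no overlap. On the log2 scale the change was -1.01 with an SE of 0.169 (edgeR adjusted p = 3.27e-05). Both arms of mir-29a thus fell. The arm that is specific to mir-29b-2, miR-29b-2-5p, was at 22.6, 29.7 and 45.4 CPM in WT and at 9.60, 23.6 and 38.2 CPM in Tet2/3 DKO. The groups overlapped, DKO 3 and DKO 7 were below the WT range, and the other 5 were within the WT range. The log2 fold change was -0.50 with a 95% interval of -1.10 to 0.11 (adjusted p = 0.155 from edgeR), which did not pass the threshold but includes a fall as large as that of miR-29a-3p. It passed without DKO 6 (-0.70, adjusted p = 0.0472) and with upper-quartile scaling (-0.69, adjusted p = 0.0478).

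**Figure D2:**
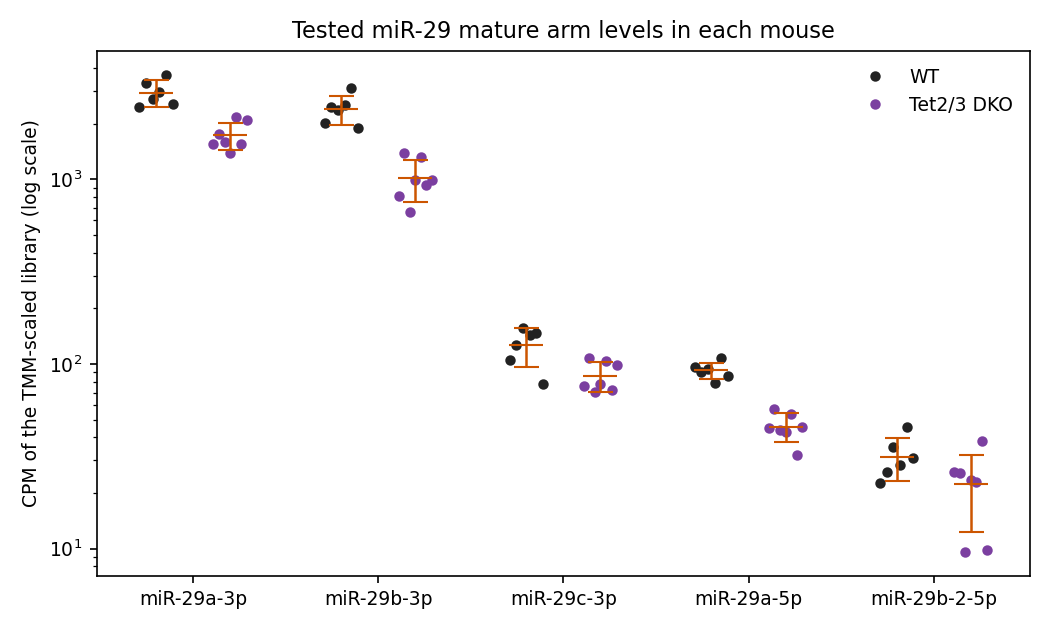
CPM of the TMM-scaled library on a log scale (vertical axis) of the 5 tested mature miR-29 arms in each of 6 WT mice (black) and 7 Tet2/3 DKO mice (purple), with orange bars at the mean ± SD. The genotypes are apart for miR-29a-3p, miR-29b-3p and miR-29a-5p and overlap for miR-29c-3p and miR-29b-2-5p, where DKO 3 and DKO 7 are the low pair near 10 CPM.

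The remaining 5p arms had too few counts for the model. miR-29b-1-5p, the arm specific to mir-29b-1, had 0 to 12 counts in a WT library and 1 to 9 in a Tet2/3 DKO library, 32 and 40 in all. The difference in mean log2 CPM was -0.46 (exact permutation test, two-sided, p = 0.356, adjusted over the 2 arms p = 0.356). It depends on WT 1, the library with a count of 0, without which the difference was -0.87 (exact permutation test, adjusted p = 0.0227). miR-29c-5p had 3 to 5 counts in a WT library and 0 to 11 in a Tet2/3 DKO library, and was at 0 in DKO 3, DKO 4 and DKO 7. Its difference was -0.87 (exact permutation test, adjusted p = 0.205), and no difference was detectable at this depth.

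The 3p arms stood in the same order in every library, while the places of the 5p arms varied. miR-29a-3p was above miR-29b-3p in 13 of 13 libraries, although their CPM ranges overlapped in WT, and miR-29b-3p was above miR-29c-3p without overlap in either genotype. miR-29c-3p was above miR-29a-5p in 5 of 6 WT and 7 of 7 Tet2/3 DKO libraries, with overlapping ranges in WT. miR-29a-5p was above miR-29b-2-5p in 6 of 6 WT and 6 of 7 Tet2/3 DKO libraries. miR-29b-1-5p and miR-29c-5p were lowest in both genotypes and their ranges overlapped, with miR-29b-1-5p the higher in 4 of 6 WT and 4 of 7 Tet2/3 DKO libraries. Of the counts of all 7 arms, miR-29a-3p made up 52.7% ± 1.78 of them in WT (SD, n = 6), against 59.9% ± 5.04 in Tet2/3 DKO (SD, n = 7), and miR-29b-3p made up 42.7% ± 1.49 and 34.7% ± 4.83. miR-29c-3p made up 2.25% ± 0.425 and 2.98% ± 0.154.

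The 3p arms carry the family's seed, so their sum is the level of sequences with that seed relative to the rest of the library. Their loading into Argonaute was not measured. The sum was 5482 ± 917 CPM in WT (SD, n = 6), against 2831 ± 500 CPM in Tet2/3 DKO (SD, n = 7), 51.6% of the WT mean. The range was 4526 to 6969 CPM in WT and 2339 to 3597 CPM in Tet2/3 DKO, so the groups were apart. As a share of all mature counts, without any scaling factor, the 3 arms held 0.498% ± 0.0634 in WT and 0.308% ± 0.0693 in Tet2/3 DKO.

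**Figure D3:**
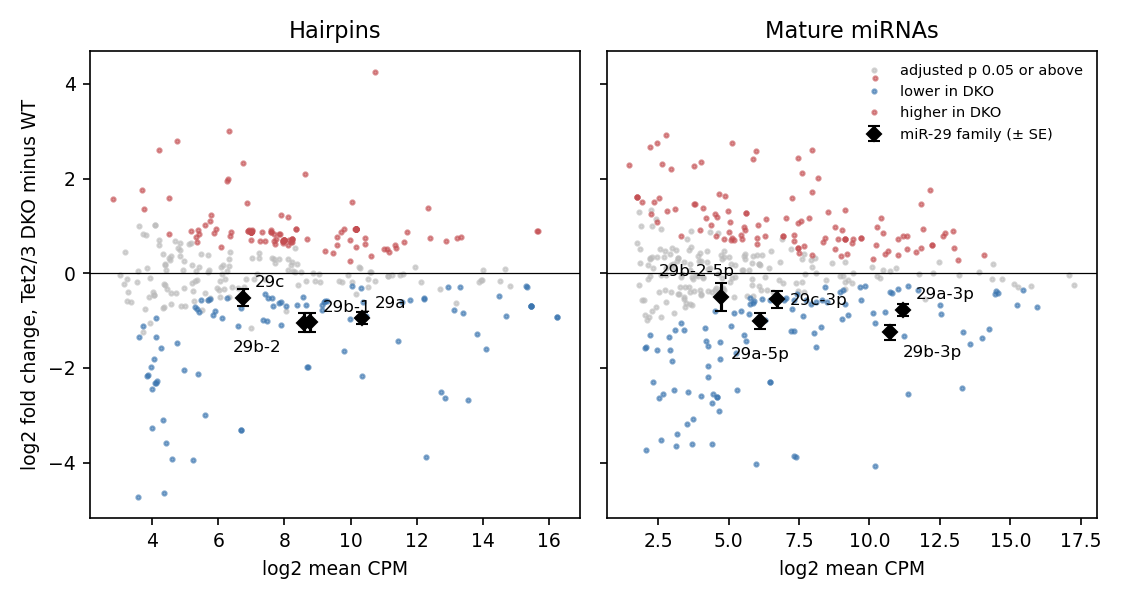
Log2 fold change between Tet2/3 DKO and WT (vertical axis) against log2 mean CPM (horizontal axis) for the 350 tested hairpins on the left and the 401 tested mature miRNAs on the right, coloured by the call at an adjusted p under 0.05, with the miR-29 members as black diamonds ± SE. All 9 diamonds are below 0, between -0.50 and -1.24, and the diamond of miR-29b-2-5p is the one not called.

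Scaling sets the zero of these values. The median log2 fold change of all tested hairpins was 0.02 and that of mature sequences -0.01. With library totals alone it moved by 0.34 and 0.25, and with upper-quartile scaling by -0.24 and -0.16. The called hairpins were 95 lower and 114 higher with TMM, 56 and 151 with library totals, and 137 and 93 with upper-quartile scaling. For mature sequences the counts were 110 and 113, 77 and 142, and 132 and 89. Relative to the median of all tested features, miR-29b-3p was at -1.24 with TMM, -1.22 with library totals and -1.23 with upper-quartile scaling, and mir-29c was at -0.54, -0.53 and -0.55. The direction of the 9 tested members was lower under every scaling tried.

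Whether the members changed unequally was asked with ratios of counts within a library, which no scaling factor can move. Of 8 ratios compared by exact two-sided permutation tests over the 1716 ways to divide the mice, 2 passed an adjusted p of 0.05, and miR-29b-3p was the numerator of each. miR-29b-3p was 83.4% of miR-29a-3p in the median WT mouse (range 74.2% to 87.0%) and 59.9% in the median Tet2/3 DKO mouse (range 41.6% to 79.6%). The mean log2 ratio was lower by 0.49 in Tet2/3 DKO, from -0.30 ± 0.0986 (SD, n = 6) to -0.80 ± 0.324 (SD, n = 7) (exact permutation test, p = 0.00524, adjusted p = 0.0210), and 6 of 7 Tet2/3 DKO mice were below the WT range. The lowest mice were DKO 3 and DKO 7, and DKO 2 was within the WT range. Without WT 1, WT 4 or WT 5 in turn the adjusted p was 0.0556, with a log2 difference of at most 0.49 in size.

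miR-29b-3p was also lower relative to miR-29c-3p, which is made from the same cluster as mir-29b-2. It was 1940% of miR-29c-3p in the median WT mouse and 1266% in the median Tet2/3 DKO mouse. The ranges, 1502% to 2416% and 949.6% to 1302%, did not overlap, and the mean log2 ratio differed by -0.74 (exact permutation test, p = 0.000583, the smallest this design can give, adjusted p = 0.00466). miR-29b-3p thus fell further than either of the other 3p arms.

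The other 6 ratios did not pass. miR-29c-3p to miR-29a-3p was higher in Tet2/3 DKO by 0.25 on the log2 scale (exact permutation test, adjusted p = 0.124). Without WT 3 it was higher by 0.34 (exact permutation test, adjusted p = 0.0370). The 5p to 3p ratio of miR-29a differed by -0.25 (exact permutation test, adjusted p = 0.124), so a change in the balance of its arms was not shown. The ratio of miR-29b-2-5p to miR-29b-3p was higher by 0.65 (exact permutation test, adjusted p = 0.106), with 6 of 7 Tet2/3 DKO mice outside the WT range, 5 of them above it and DKO 7 below it. Without DKO 7 the difference was 0.82 (exact permutation test, adjusted p = 0.0231).

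Within the chromosome 1 cluster, miR-29c-3p to miR-29b-2-5p differed by 0.09 (exact permutation test, adjusted p = 0.808) and varied widely among Tet2/3 DKO mice, from 190% to 984%. Among hairpins, mir-29b-1 to mir-29a, neighbours on chromosome 6, differed by -0.15 (exact permutation test, adjusted p = 0.594). There mir-29b-1 was at 33.9% of mir-29a in the median WT mouse and 32.1% in the median Tet2/3 DKO mouse. Reads of the 3p arm that match both mir-29b hairpins enter this ratio and that of mir-29c to mir-29b-2. Neither is thus confined to 1 cluster. The mature ratio of miR-29b-3p to miR-29a-3p, by contrast, differed by -0.49. The hairpin mir-29c was 22.9% of mir-29b-2 in the median WT mouse and 39.1% in the median Tet2/3 DKO mouse, a log2 difference of 0.57 (exact permutation test, p = 0.0210, adjusted p = 0.0559). It passed without WT 6 (0.68, adjusted p = 0.0303 by the exact permutation test) and without DKO 2 (0.70, adjusted p = 0.0115).

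**Figure D4:**
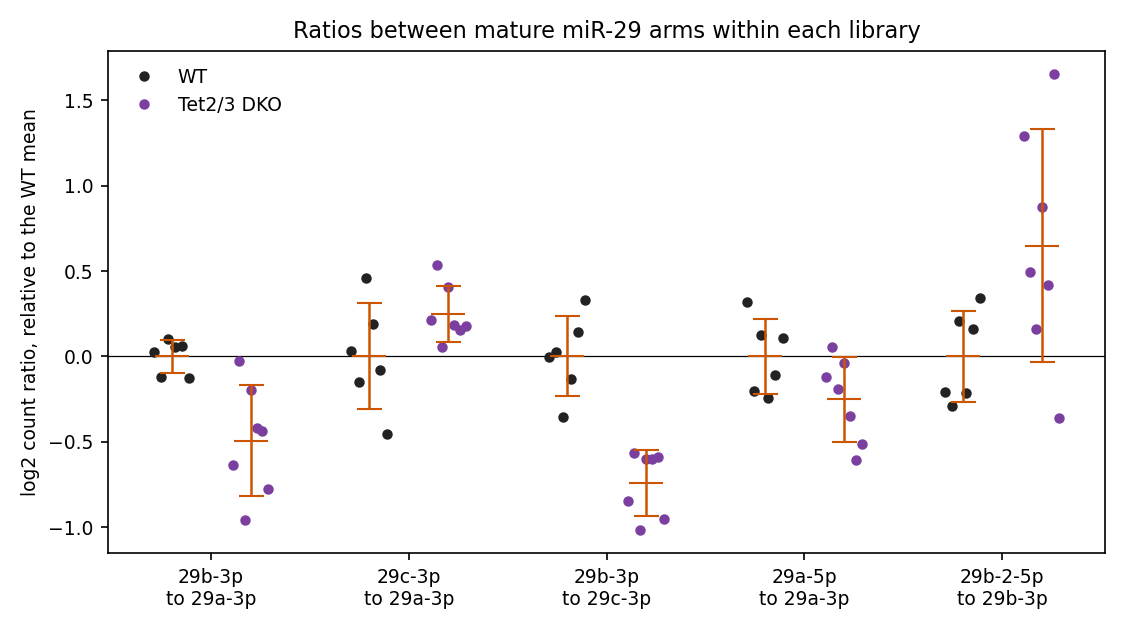
Log2 ratio of 2 counts of the same library, relative to the mean of the WT mice (vertical axis), for 5 pairs of mature miR-29 arms in 6 WT mice (black) and 7 Tet2/3 DKO mice (purple), with orange bars at the mean ± SD. The purple points of miR-29b-3p to miR-29c-3p are all below the black ones, and 6 of 7 of miR-29b-3p to miR-29a-3p are.

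The mature miRNAs whose pattern over the 13 mice was nearest to that of a member were sought by the root mean square difference in log2 CPM, each taken relative to its own WT mean. Nearest to miR-29a-3p were miR-3074-5p (0.127, log2 fold change -0.86), miR-142b (0.183, -0.85) and miR-26a-5p (0.210, -0.67). In RefSeq miR-3074-5p lies opposite miR-24-3p and miR-142b opposite miR-142a-3p, and whether the counting used strand is not given in the sources used here. The hairpin rows mir-142a and mir-142b held nearly the same values (log2 fold change -0.93 for each), as did mir-24-1 and mir-3074-1 (-0.69 for each). Hairpin reads thus appear to be counted without regard to strand. Nearest to miR-29b-3p were miR-26b-5p (0.276, -1.25), miR-23b-3p (0.303, -1.49) and miR-22-3p (0.307, -1.57). miR-29a-3p and miR-29b-3p differed from each other by 0.428, which put miR-29b-3p at place 48 in nearness to miR-29a-3p.

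The list of other miRNAs known to target messenger RNAs of Tet or Dnmt genes was written with results of this experiment known. It also holds miR-26a-5p and miR-26b-5p, which share a seed, and its counts are therefore no test. More of these miRNAs were lower than higher. Of 9 such mature miRNAs, all tested, 5 were lower, 0 were higher and 4 did not pass, against 27.4% lower and 28.2% higher over all mature sequences tested, and the median log2 fold change was -0.67 against -0.01. Of the 3 most abundant by the mean over all mice, miR-26a-5p, which targets Tet messenger RNAs, went from 47889 ± 6489 CPM (SD, n = 6) to 30053 ± 2876 (SD, n = 7), a log2 fold change of -0.67 (adjusted p = 1.82e-05 from edgeR). miR-26b-5p, which has the same seed, went from 14248 ± 2999 to 5999 ± 534 CPM, a log2 fold change of -1.25 (adjusted p = 5.68e-08 from edgeR). miR-148b-3p, known to target Dnmt messenger RNAs, was at 628 ± 64.1 and 570 ± 58.7 CPM (log2 fold change -0.14, adjusted p = 0.295 from edgeR). Its relative miR-148a-3p, named after its value was seen, was higher than miR-148b-3p in WT, at 681 ± 171 CPM, and was at 349.6 ± 151 CPM in Tet2/3 DKO (log2 fold change -0.96, adjusted p = 0.0249 from edgeR, but 0.0860 with library totals and 0.104 with a filter of 1 count). Of the 11 hairpins of this list, 9 were tested, 6 were lower, 1 was higher and 2 did not pass, against 27.1% lower and 32.6% higher over all hairpins tested, with a median of -0.54 against 0.02. The 1 that was higher, mir-101b, is named after its value was seen, and its call (log2 fold change 0.36, adjusted p = 0.0267 from edgeR) did not hold with DESeq2 (0.31, adjusted p = 0.0958) or upper-quartile scaling (0.12, adjusted p = 0.443), nor without WT 5, DKO 2, DKO 3 or DKO 7 (0.29 to 0.33).

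The most abundant hairpins of that list were mir-26b (-0.77), mir-26a-1 (-0.54) and mir-26a-2 (-0.53), all called lower. The values of mir-26a-1 and mir-26a-2 were nearly the same, so the count of lower hairpins appears to include the same reads more than once. With library totals alone mir-26a-1 and mir-26a-2 were no longer called (adjusted p = 0.185 and 0.195 from edgeR) and the list had 2 lower hairpins. The hairpin called higher was mir-101b, named after its value was seen and not called without WT 5, DKO 2, DKO 3 or DKO 7, with 1381 ± 268 CPM in WT (SD, n = 6), against 1778 ± 290 CPM in Tet2/3 DKO (SD, n = 7).

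MiRNAs known to set T-bet, interferon gamma or other effector cytokine output were called lower or higher in shares near those of all mature sequences. Of 9 mature ones, 3 were lower, 2 were higher and 4 did not pass, against 27.4% lower and 28.2% higher, with a median log2 fold change of 0.00. miR-150-5p, a miRNA of mature lymphocytes, went from 26723 ± 6756 CPM (SD, n = 6) to 11833 ± 3403 (SD, n = 7), a log2 fold change of -1.18 (adjusted p = 3.58e-05 from edgeR). miR-24-3p, which is known to restrain T helper cytokine output, had a log2 fold change of -0.44 (adjusted p = 0.000538 from edgeR), and miR-27a-3p, whose hairpin is clustered with mir-24-2, one of -0.11 (adjusted p = 0.411). Its paralogue miR-27b-3p, from the cluster of mir-24-1 and named after its value was seen, went from 23333 ± 2535 CPM to 9014 ± 1069, without overlap (log2 fold change -1.37, adjusted p = 7.75e-10 from edgeR). Of the 11 hairpins of the list, 5 were lower, 3 were higher and 3 did not pass, against 27.1% lower and 32.6% higher over all hairpins. The most abundant, mir-24-1, mir-24-2 and mir-150, had log2 fold changes of -0.69, -0.69 and -1.28. Since mir-24-1 and mir-24-2 held nearly the same values, the 5 lower hairpins appear to include the same reads more than once. The count of mature miRNAs called higher was 4 with library totals, 1 with upper-quartile scaling, and 1 when any mouse but WT 3 or DKO 6 was left out.

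Most of the tested mature miRNAs that mark cells other than T cells were also lower in Tet2/3 DKO libraries. Of 16 mature markers of red cells, myeloid cells, stroma, epithelium and endothelium, 14 were tested, 10 were lower, 1 was higher and 3 did not pass, against 27.4% lower and 28.2% higher over all mature sequences tested. Their summed level was 1714 to 2258 CPM in WT and 1036 to 1371 CPM in Tet2/3 DKO. The red cell markers summed to between 221 and 441 CPM in the WT mice and to between 28.1 and 134 in the others. Among them, miR-486a-5p and miR-486b-5p held the same values (log2 fold change -2.30 for each). The red cell sum, the sum of all markers and the count of lower markers thus appear to include the same reads more than once. The stromal markers summed to between 28.6 and 68.6 CPM and between 5.27 and 19.3. The epithelial markers summed to between 1270 and 1678 CPM and between 812 and 1082, with the keratinocyte miRNA miR-205-5p at 0 in 11 of 13 libraries. The myeloid marker miR-223-3p was between 2.31 and 91.7 CPM and between 0.633 and 6.57. Only the endothelial marker of the list, miR-126a-3p, was called higher, at 72.5 to 154 CPM in WT and 139 to 247 CPM in Tet2/3 DKO. Of the 16 hairpins of this list 11 were tested, and 5 were lower, 0 were higher and 6 did not pass. The lower ones include mir-486a and mir-486b, whose values were nearly the same (log2 fold change -1.97 for each). Over all hairpins tested 27.1% were lower and 32.6% higher. No tested epithelial hairpin was called (log2 fold change -0.42 for mir-200a, -0.51 for mir-200b, 0.07 for mir-200c, 0.14 for mir-141 and -0.17 for mir-203). The endothelial hairpin mir-126a, at -0.13, was not called either. The part of cells other than T cells in the miR-29 levels was not tested.

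The seed sites that miR-29 could pair with were searched in the 3′ UTRs of 12 genes of T cell effector function, DNA methylation and iNKT cell identity, since the family acts through them. The motif was TGGTGCT, the reverse complement of bases 2 to 8, on the strand of the gene, in the longest annotated 3′ UTR of each gene in GENCODE M21. Of the 12 genes 9 held it, against 13.1% of all 21006 genes with a 3′ UTR, and 5 held the 8-base form TGGTGCTA, against 2.86%. The listed genes include known targets of the family, so this count is no test. Longer UTRs hold the motif more often, and 43.8% of genes with a 3′ UTR close in length to that of Tet3 held it, against 7.61% of those close in length to that of Tbx21.

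The site in each effector gene is shown 5′ to 3′ in DNA letters with the motif in capitals, since these genes hold 1 site each.
Tbx21: ctacagtcacgaaccTGGTGCTg
Eomes: aaaataatgtaaattTGGTGCTt
Ifng: aagagacttgacaccTGGTGCTt
The site of Tbx21, which encodes T-bet, is at chr11:97098546-97098568 on the minus strand of GRCm38, and its motif begins at base 219 of a 3′ UTR of 701 bases. That of Eomes, a T-box factor related to T-bet, is at chr9:118485795-118485817 on the plus strand, and its motif begins at base 798 of 1120. That of Ifng, which encodes interferon gamma, is at chr10:118445765-118445787 on the plus strand, and its motif begins at base 519 of 631.

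The genes of DNA methylation and its removal held more sites in longer UTRs. Dnmt3a, a de novo methyltransferase, held 5 sites, of which 2 were 8-base, and Dnmt3b held 1. The dioxygenase genes Tet1, Tet2 and Tet3 held 7, 5 and 8 sites, and Tdg, the glycosylase that removes oxidized methylcytosine, held 3. A site with the 8-base form from each of 3 of these genes is shown, with the 7-base motif in capitals.
Dnmt3a: cccaggggaggtagcTGGTGCTa
Tet2: ggtgttaacattaaaTGGTGCTa
Tet3: aaatagtctaataaaTGGTGCTa
They are at chr12:3911390-3911412 on the plus strand, chr3:133466173-133466195 on the minus strand and chr6:83364336-83364358 on the minus strand. The letters TGGTGCT were not found in the annotated 3′ UTRs of Dnmt1, Zbtb16 and Drosha. These are 312, 2845 and 169 bases long, and 3.55%, 25.8% and 1.76% of genes with a 3′ UTR close in length held the motif. Its absence from the short UTRs of Dnmt1 and Drosha therefore says little. A match is a stretch of letters and not a measured interaction, and the messenger RNAs of these genes were not measured in these files.

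**Figure D5:**
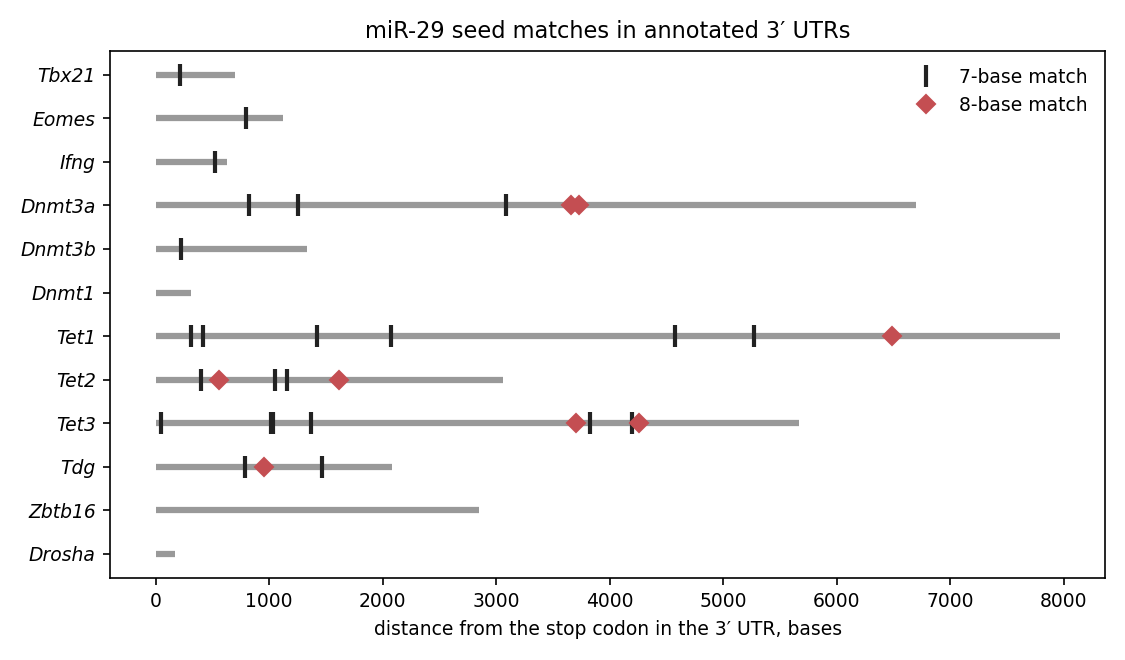
Position of miR-29 seed matches in the longest annotated 3′ UTR of 12 genes, as distance from the stop codon in bases (horizontal axis), with grey lines for the UTRs, black ticks for 7-base matches and red diamonds for 8-base matches. Tet3 and Tet1 hold 8 and 7 matches, Tbx21, Eomes and Ifng hold 1 each, and Dnmt1, Zbtb16 and Drosha hold none.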

How the data were processed

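Per the labels, each library is small RNA of FACS-sorted thymic iNKT cells of 1 mouse. The authors processed reads with nf-core/smrnaseq at default parameters and deposited raw counts per hairpin and per mature sequence. The submitters' processing notes name mm10. The aligner and the treatment of reads that match several sequences are not given in the sources used here, though rows with the same values point to counting in each. The authors' own comparison was not used.

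From the counts, features were kept by filterByExpr (minimum count 10, minimum total 15) and compared with edgeR 4.0.16 (TMM, robust quasi-likelihood test, genotype only, Benjamini-Hochberg within each table) in R 4.3.3. Arms under the filter (log2 CPM, prior count 2) and ratios (0.5 added to each count) were compared by exact permutation tests in Python 3.11.15. limma 3.58.1 and DESeq2 1.42.0 served as alternatives. Scripts were tested on simulated data. Libraries of a genotype differed by more than sampling noise. The correlation of deviations of same-numbered WT and Tet2/3 DKO mice was not above 0.1 in every pair (-0.050 to 0.342 for hairpins, 0.012 to 0.335 for mature sequences) and the labels give the numbers no shared origin, so no pairs were used. p-values measure the spread between mice, and counts without molecular identifiers make counting error a lower limit.

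Members and lists were chosen with earlier results of these data known. Named miRNAs are all members, the 3 most abundant tested members (mean CPM over all 13 mice) of the lists of Tet or Dnmt regulators and of effector regulators, and the 3 nearest to miR-29a-3p and to miR-29b-3p. 1 further gene of the planned list for seed matches is not reported here, and the counts cover the other 12.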

Additional observations from a re-analysis of the deposited data

Results flagged for a closer look

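In 38 groups of 6 or 7 mice checked for a value far from the rest, 4 were found, where chance gives about 1.9. The hairpins mir-29b-1 and mir-29b-2, whose 3p reads cannot be told apart, were low in DKO 3, at 6.87 and 6.75 log2 CPM against 8.04 and 7.82 in the next lowest Tet2/3 DKO mouse. On the linear scale these were 38.0% and 42.0% of the median of the other Tet2/3 DKO mice, while miR-29b-3p was at 67.5%, miR-29b-2-5p at 39.0% and miR-29a-3p at 96.9% of it. miR-29b-1-5p was low in DKO 5, at -0.058 log2 CPM (1 count) against 0.98 in the next mouse. The log2 ratio of the hairpin mir-29c to mir-29b-2 was high in WT 6, at -1.49 against -2.04 in the next WT mouse.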

How the results depend on the processing

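The direction of the 9 tested members was lower in every fit, and mir-29a, mir-29b-1, mir-29b-2, miR-29a-3p, miR-29b-3p and miR-29a-5p kept an adjusted p under 0.05 in all of them (8 other settings, DESeq2 and limma-voom among them, and 13 fits without 1 mouse each). Under the other settings 3 to 4 hairpins and 3 to 5 mature members were called lower. mir-29c was not called with library totals alone (-0.18) or with every hairpin of at least 1 count (-0.34), and ranged from -0.61 to -0.42 without 1 mouse. miR-29c-3p was not called under these settings either (-0.28 and -0.46). miR-29b-2-5p was called with upper-quartile scaling (-0.69) and ranged from -0.70 to -0.43 without 1 mouse. The cause was not tested in any of these. With library totals the summed hairpins differed by -0.65 on the log2 scale, against -0.99 with TMM. With the 8-base form 5 listed genes held a site.

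Without 1 mouse each, the log2 ratio differences ranged from -0.57 to -0.41 for miR-29b-3p to miR-29a-3p, 0.16 to 0.34 for miR-29c-3p to miR-29a-3p, 0.48 to 0.82 for miR-29b-2-5p to miR-29b-3p, -0.11 to 0.28 for miR-29c-3p to miR-29b-2-5p and 0.48 to 0.70 for mir-29c to mir-29b-2. miR-29b-1-5p ranged from -0.87 to -0.16.

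The replicate block changed no call of a member in the edgeR fits (mir-29c -0.59, miR-29c-3p -0.56, miR-29b-2-5p -0.43). The numbers share no known origin. Among the 6 or 7 mice of the other genotype, 5 of 12 hairpin and 4 of 12 mature profiles deviated most like their own number. Whether same-numbered mice share an origin was not tested further. In the paired sign permutation over 6 pairs the smallest possible p before adjustment is 0.03125. The smallest adjusted p reached over the 8 ratios was 0.125, so none passed. The log2 ratios of miR-29b-3p to miR-29a-3p and to miR-29c-3p differed by -0.45 and -0.70 (sign permutation, adjusted p = 0.125 for each). The difference of miR-29c-3p to miR-29b-2-5p turned to -0.11. Of 399 values of other named miRNAs, 384 kept their call and direction, 13 lost the call, and miR-27a-3p (0.15) and miR-148b-3p (0.11) turned with library totals.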
